A study of Bos taurus with 31 samples.

Results

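The genes described here are the 5 enzymes of the urea cycle (*CPS1*, *OTC*, *ASS1*, *ASL* and *ARG1*), the activator-producing enzyme *NAGS*, the ornithine carrier *SLC25A15*, and 3 enzymes that release or bind ammonia (*GLUD1*, *GLS2* and *GLUL*). They were taken by symbol from the 24616 genes of the count table of bovine liver, in which each of the 10 symbols had a row of its own. All 10 were above the minimum of 20 reads summed over the cows and stood among the 15916 genes tested. The list was fixed by symbol, with earlier results of these data already known.

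The urea cycle converts toxic ammonia into urea and runs to completion only in liver. Its opening steps lie in mitochondria, where *NAGS* makes the obligate activator of *CPS1*, *CPS1* joins ammonia and bicarbonate to carbamoyl phosphate, *OTC* forms citrulline, and *SLC25A15* exchanges ornithine and citrulline across the inner membrane. The remaining steps are cytosolic. Ammonia that passes the periportal cycle is bound to glutamate by *GLUL* in the hepatocytes next to the central vein. In ruminants much of the ammonia that reaches the liver comes from protein broken down in the rumen, and part of the urea returns there in saliva and across the rumen wall.

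Liver was sampled by puncture biopsy from 31 lactating German Holstein cows after 16 weeks of feeding, and each cow gave 1 RNA library. Cows received either a ration containing glyphosate residues, carried by peas, wheat grain and straw from plants sprayed before harvest with a Roundup formulation (GLY), or a control ration (CON). Within each treatment the concentrate feed proportion (CFP) was high (HC, 60% of dry matter) or low (LC, 30%). The groups were CONHC (n = 8), CONLC (n = 8), GLYHC (n = 8) and GLYLC (n = 7, since the material of 1 cow was lost). In all groups the remainder of the ration was maize silage, grass silage and straw, so that maize and grass silage fell as concentrate rose. Cows are separate animals, and the spread between them is biological as well as technical. In biopsies of whole liver, fewer cells of a type and less RNA per cell cannot be told apart.

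The number of reads assigned to genes was 11675800 in the cow with the fewest and 36675500 in the cow with the most. All 12 hepatocyte marker genes examined, among them *ALB*, had reads in every library, and together they reached between 137410 and 232637 CPM (read counts scaled to a common library size after TMM normalization). The library of GLYLC cow 912 stood apart. It held 205.8 CPM of *FABP2*, a fatty acid binding protein of intestinal epithelium, against at most 0.163 CPM in any other cow, and its *ALB* level of 42899.5 CPM was the lowest of all. This cow is marked in the plots, and values without it are given beside many of the printed results that it moved by over 1.5 times or across a threshold.

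None of the 10 genes passed the threshold for a difference between diets. In the comparison of HC with LC over all cows, with treatment as a covariate, edgeR's quasi-likelihood F test called 0 of 10 members (p under 0.05 and Benjamini-Hochberg adjusted p under 0.1 over all genes tested), where 1.45% of all genes tested were called. At an unadjusted p under 0.05 there were 3 members, *NAGS* and *OTC* with higher and *GLUL* with lower values in HC, against a background of 13.7% of all genes in either direction. DESeq2 on all cows also called 0 and put the same 3 below an unadjusted p of 0.05. Over the members the log2 fold changes of HC against LC lay between -0.35 and 0.32 with a median of 0.12, beside a median of -0.01 over all genes tested. Without cow 912 they lay between -0.36 for *GLUL* and 0.23 for *GLS2*, and all 10 and their median were lower than with it. With all cows the widest 95% interval of a member reached 0.70, so larger differences in either direction lay outside the intervals of all 10 genes.

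**Figure D1:**
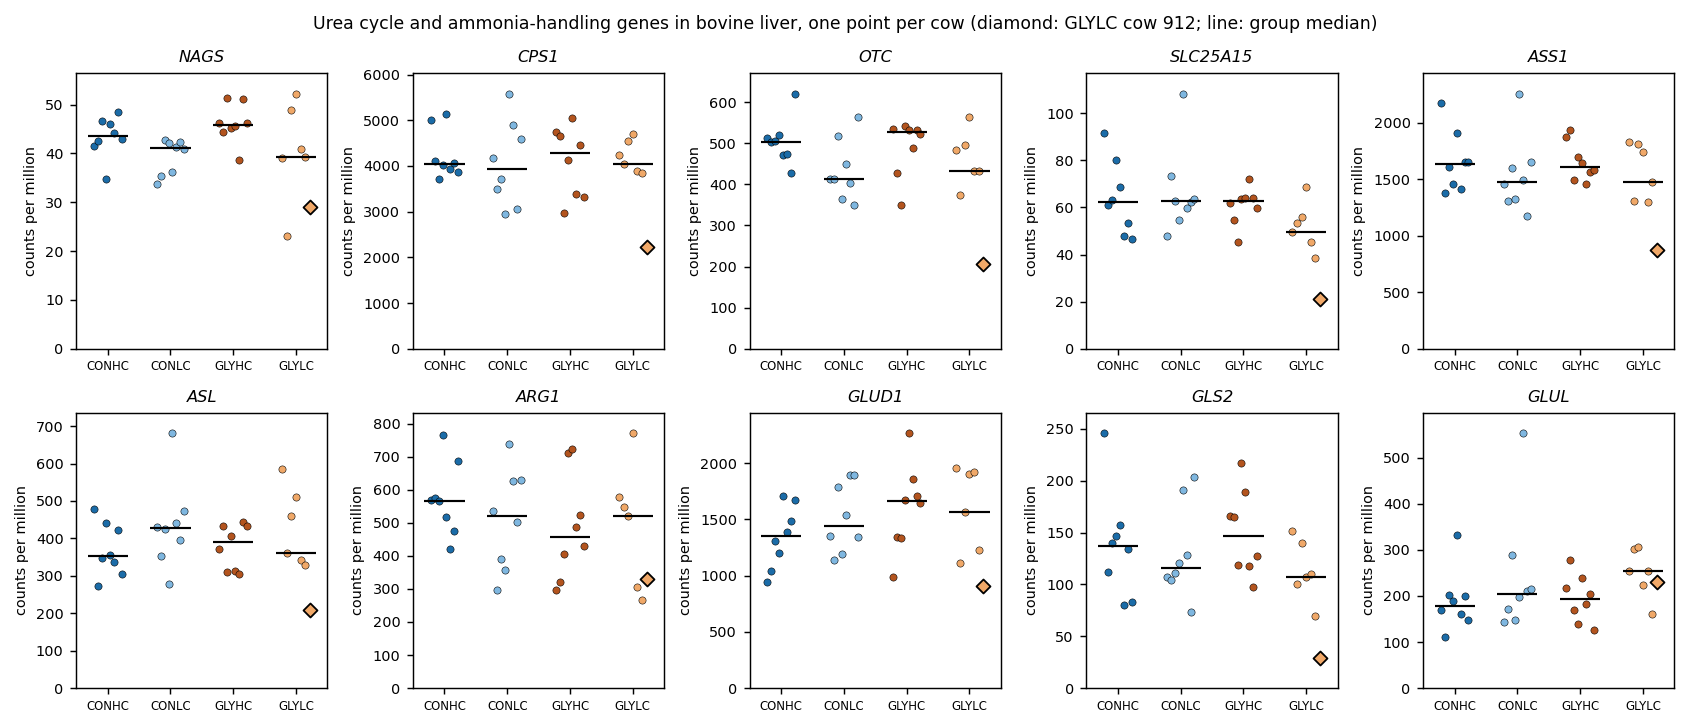
Level of the 10 genes in CPM (y axes from 0, scaled per gene) for each cow of the 4 groups, with a line at the group median and a diamond for GLYLC cow 912. The groups overlapped for every gene, and cow 912 had the lowest value of all cows for 7 of the 10 genes.

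Among the mitochondrial members, *NAGS* was measured in CONHC cows at 34.9 to 48.5 CPM with a median of 43.5, and in CONLC cows at 33.7 to 42.8 with a median of 41.0. In GLYHC cows it lay between 38.6 and 51.3 with a median of 45.9, and in GLYLC cows between 23.1 and 52.2 with a median of 39.3. The HC medians were above the LC medians under both treatments, and within each treatment 7 of 8 HC cows were above the LC median, yet the ranges overlapped. Over all cows *NAGS* was 1.14-fold higher in HC (log2 fold change 0.19 ± 0.08 SE, 95% interval 0.03 to 0.35, edgeR adjusted p = 0.264), a difference that did not pass the threshold. In GLY cows alone the log2 difference was 0.24 (95% interval 0.01 to 0.48, edgeR adjusted p = 0.373), and 0.15 without GLYLC cow 102, whose 23.1 CPM was the lowest value of the gene.

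*CPS1*, the enzyme through which ammonia enters the cycle, had medians of 4035 CPM in CONHC, 3943 in CONLC, 4293 in GLYHC and 4040.5 in GLYLC. The lowest and highest cows were at 3723 and 5146 in CONHC and at 2946 and 5582 in CONLC. They were at 2975 and 5055 in GLYHC and at 2234 and 4695 in GLYLC. The spread between cows of 1 group was thus far wider than the distance between group medians. The log2 difference between HC and LC was 0.06 in CON cows (95% interval -0.23 to 0.35) and 0.06 in GLY cows (-0.24 to 0.36, and an estimate of -0.04 without cow 912).

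*OTC*, which condenses ornithine with carbamoyl phosphate, ranged from 427 to 621 CPM in CONHC (median 504) and from 350.0 to 563 in CONLC (median 413). It ranged from 349 to 541 in GLYHC (median 528) and from 206 to 565 in GLYLC (median 433). All 8 CONHC cows were above the CONLC median, and 6 of 8 GLYHC cows were above the GLYLC median. The log2 fold change of HC against LC was 0.21 ± 0.10 SE over all cows (95% interval 0.01 to 0.40, edgeR adjusted p = 0.326), with 0.21 in CON and 0.20 in GLY cows. Without cow 912 the difference in GLY cows was 0.08, and that over all cows was 0.15 and no longer at an unadjusted p under 0.05. The difference in CON cows stayed at 0.21 and came to an unadjusted p under 0.05.

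*SLC25A15*, the carrier that links the mitochondrial to the cytosolic steps, had medians of 62.1 CPM in CONHC, 62.6 in CONLC, 62.6 in GLYHC and 49.8 in GLYLC. Its lowest and highest values were 46.6 and 91.5 in CONHC, 47.7 and 108 in CONLC, 45.2 and 72.2 in GLYHC, and 21.2 and 68.7 in GLYLC. The 3 other groups thus had nearly the same median, and GLYLC lay lower with ranges that overlapped. Between HC and LC the log2 difference was 0.14 over all cows, with a 95% interval from -0.12 to 0.40, and 0.07 without cow 912. It was -0.05 in CON cows and 0.35 in GLY cows, and 0.22 in GLY cows without cow 912.

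For the cytosolic enzymes, too, cows of 1 diet spread more widely than the diets were apart. *ASS1*, which joins citrulline and aspartate and so brings in the second nitrogen, had medians of 1630.5 CPM in CONHC, 1475 in CONLC, 1613 in GLYHC and 1475 in GLYLC, with single cows between 878 and 2257. Its log2 fold change of HC against LC was 0.14 (95% interval -0.05 to 0.33, edgeR adjusted p = 0.553). *ASL*, which splits argininosuccinate into arginine and fumarate, was the only cycle enzyme with a lower fitted value in HC, with medians of 353 in CONHC, 428 in CONLC, 389.8 in GLYHC and 361 in GLYLC. Its single cows lay between 208 and 682 CPM, and its log2 difference was -0.16 (-0.40 to 0.09, edgeR adjusted p = 0.61). *ARG1*, the arginase that releases urea, varied widely within groups, from 421 to 764 in CONHC, 297 to 739 in CONLC, 296 to 722 in GLYHC and 265 to 772 in GLYLC. The coefficient of variation of *ARG1* over the 31 cows was 29.3%, and the HC against LC difference was 0.10 (-0.20 to 0.41).

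Of the 3 ammonia-handling enzymes outside the cycle, *GLUL* and *GLUD1* had lower and *GLS2* higher fitted values in HC than in LC. *GLUL*, glutamine synthetase, had medians of 179 CPM in CONHC and 205 in CONLC, with ranges of 112 to 333 and 144 to 554. In GLYHC its median was 194 (126 to 279) and in GLYLC 254 (161 to 306). The median was lower in HC under both treatments, and only 1 of 8 HC cows was above the LC median in either treatment, while the ranges overlapped widely. The fitted *GLUL* level in HC was 0.784 times that in LC over all cows (log2 fold change -0.35 ± 0.16 SE, 95% interval -0.68 to -0.02, edgeR adjusted p = 0.330). Without CONLC cow 259 (554 CPM) this log2 fold change was -0.20 and not at an unadjusted p under 0.05. The log2 difference of *GLUL* was -0.35 in CON cows and -0.35 in GLY cows, but in CON cows it was -0.06 without cow 259 and -0.52 without CONHC cow 134, whereas in GLY cows it lay between -0.45 and -0.28 with any 1 cow left out.

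*GLUD1*, the mitochondrial glutamate dehydrogenase, had medians of 1348 CPM in CONHC, 1444 in CONLC, 1659.9 in GLYHC and 1565 in GLYLC. Its single cows lay between 909 and 2268 CPM over the 4 groups. The log2 difference between HC and LC was -0.05 (95% interval -0.30 to 0.20), and -0.10 without cow 912. It was -0.18 in CON cows and 0.08 in GLY cows, and -0.01 in GLY cows without cow 912. *GLS2*, the liver-type glutaminase that frees ammonia from glutamine, ranged from 80.5 to 246 CPM in CONHC (median 137) and from 73.7 to 203 in CONLC (median 116). It ranged from 97.7 to 217 in GLYHC (median 146) and from 28.6 to 151 in GLYLC (median 107). In GLY cows *GLS2* was 1.48-fold higher in HC (log2 fold change 0.57 ± 0.27 SE, 95% interval 0.02 to 1.11, edgeR adjusted p = 0.373), with 7 of 8 GLYHC cows above the GLYLC median. Without cow 912 that difference was 0.40, and in CON cows it was 0.08.

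Within the treatments, edgeR called 0 of 10 members between CONHC and CONLC and 0 of 10 between GLYHC and GLYLC, where 0% and 0.201% of all genes were called. At an unadjusted p under 0.05 there were 0 members in CON cows (background 5.96%) and 2 in GLY cows, *GLS2* and *NAGS* (background 12.5%). DESeq2 on all cows gave the same counts in both comparisons, 0 called and 0 and 2 below an unadjusted p of 0.05. Both GLY differences include cow 912, and without it no member was below 0.05 in that comparison. In CON cows 1 member, *OTC*, came below 0.05 without cow 912 (log2 difference 0.21, edgeR unadjusted p = 0.0487, background 7.16%). Fits of edgeR and of DESeq2 on only the 2 CON groups each put 1 member below 0.05. On only the 2 GLY groups edgeR put 0 members and DESeq2 put 2 below 0.05.

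**Figure D2:**
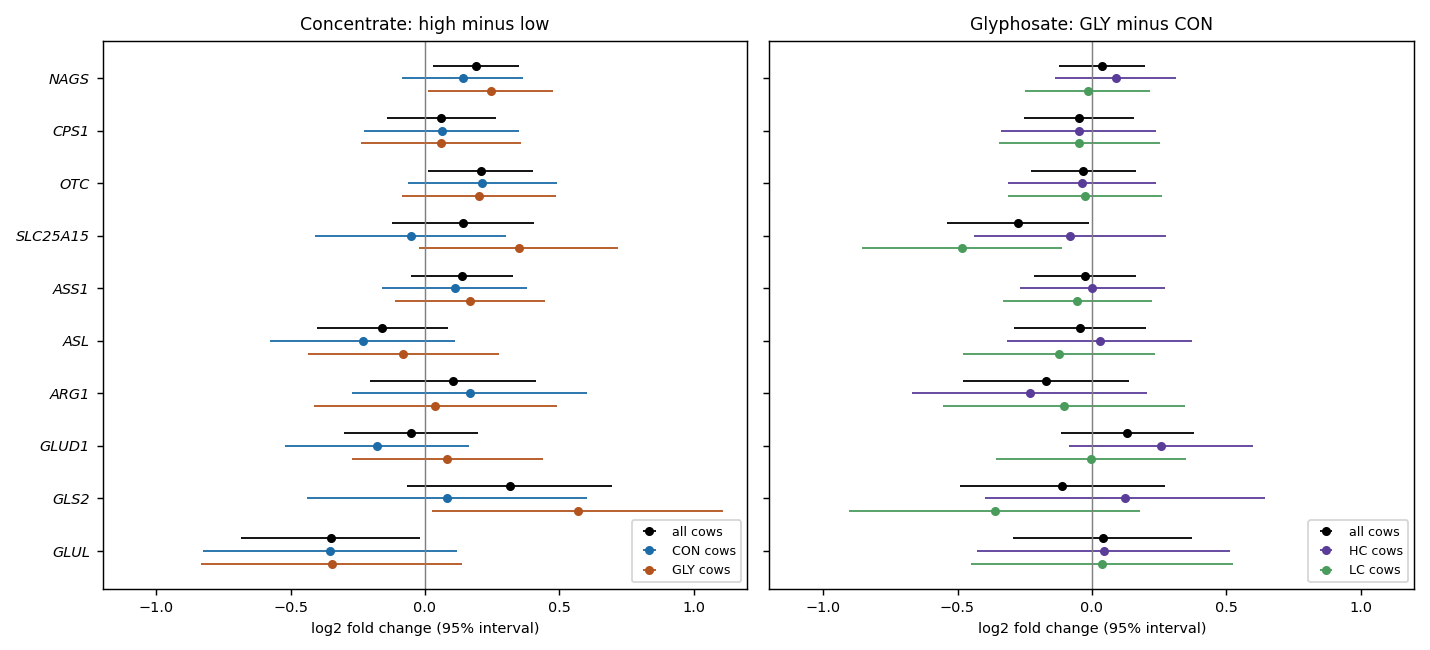
Log2 fold changes (points) with 95% intervals (lines) of the 10 genes, for HC minus LC on the left and GLY minus CON on the right. Black stands for the fit over all cows, and colours for the pairwise contrasts named in each key. The *GLUL* estimates were -0.35 in CON and in GLY cows (-0.06 in CON cows without cow 259), and *SLC25A15* had its lowest value in GLYLC against CONLC (-0.48).

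For glyphosate, edgeR called 0 of 10 members in GLY against CON with CFP as a covariate, where 0% of all genes were called, and DESeq2 called 0 as well. *SLC25A15* was the only member at an unadjusted p under 0.05 in either tool, against a background of 3.92%. Its log2 fold change was -0.27 ± 0.13 SE (95% interval -0.54 to -0.01, edgeR adjusted p = 0.9999), or -0.20 without cow 912, where it was no longer at an unadjusted p under 0.05. The log2 differences of the other 9 genes lay between -0.17 for *ARG1* and 0.13 for *GLUD1*. *CPS1* differed by -0.05 (95% interval -0.25 to 0.16), or by 0.0017 without cow 912, and *GLUL* by 0.04 (-0.29 to 0.37).

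Split by CFP, 0 of 10 members were called in GLYHC against CONHC (0% of all genes) and 0 of 10 in GLYLC against CONLC (0.0628% of all genes), by edgeR and by DESeq2. Both tools put 0 members below an unadjusted p of 0.05 in HC cows (background 2.92%) and 1 member, *SLC25A15*, below it in LC cows (background 5.65%). In LC cows *SLC25A15* was 0.715 times as high with GLY (log2 fold change -0.48 ± 0.18 SE, 95% interval -0.85 to -0.11, edgeR adjusted p = 0.690). Only 1 of 7 GLYLC cows was above the CONLC median, and 7 of 8 CONLC cows were above the GLYLC median. Without cow 912 the value was -0.35 and still at an unadjusted p under 0.05, and without CONLC cow 169, the highest of the gene at 108 CPM, it was -0.35 and no longer so. In HC cows the log2 difference was -0.08. The difference between these 2 glyphosate effects, tested as an interaction, was 0.40 with a 95% interval of -0.11 to 0.92 (edgeR adjusted p = 0.999).

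In the interaction of GLY with CFP, 0 of 10 members were called by edgeR or DESeq2 (0% of all genes), and 0 were below an unadjusted p of 0.05 in either tool (background 4.21%). *GLS2* had the highest interaction estimate, 0.49 on the log2 scale with an interval of -0.26 to 1.24, and 0.32 without cow 912. For *CPS1*, *OTC* and *GLUL* the estimates were between -0.01 and 0.01, and without cow 912 they were -0.11, -0.13 and -0.01.

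Cow 912 had the lowest level of all 31 cows for *CPS1*, *OTC*, *ASS1*, *ASL*, *SLC25A15*, *GLUD1* and *GLS2*. *CPS1* stood at 2234 CPM in this cow, which was 54.0% of the median of the other 6 GLYLC cows, and *OTC* at 206 CPM. *GLS2* was lowest in relation to the group, with 28.6 CPM or 26.3% of that median, and the next cow in the series was at 69.8. *GLUL* did not follow, with 231 CPM in this library and 161 to 306 in the other GLYLC cows. The acute phase protein gene *HP* had its highest level there, 19491 CPM against at most 6569 in any other cow. The summed intestinal epithelium markers (674 CPM, at most 421 elsewhere) and lymphocyte markers (179.5 CPM, at most 98.5 elsewhere) were also highest in this library. Of the lymphocyte sum, 157.6 CPM came from *JCHAIN* alone, and *GZMA* stood at 0.548 CPM (0.281 to 2.21 in other cows). The summed hepatocyte, periportal and pericentral markers were lowest. *ALB* is in both the hepatocyte and the periportal list and made 42899.5 of the 46866.8 CPM of the periportal sum. The periportal *HSD17B13* (812.6 CPM) was not lowest. The part of *HP* and of each of these marker lists in the low levels of the cycle genes was not tested.

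The total of the 10 genes was between 0.572% and 1.16% of the reads of a cow, with group medians of 0.879% in CONHC, 0.872% in CONLC, 0.879% in GLYHC and 0.913% in GLYLC. The ratio of *CPS1* reads to *GLUL* reads, which sets the entry enzyme of the cycle beside the glutamine-forming enzyme within a library, had medians of 23.0 in CONHC, 20.1 in CONLC, 21.4 in GLYHC and 15.2 in GLYLC. The lowest and highest cows of these ratios were 15.5 and 36.8, 8.85 and 29.0, 16.7 and 29.8, and 9.68 and 23.9. These ranges overlapped between all groups, and no test was run on the ratio.

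Across cows of the same diet, many of the genes varied together. After group means were removed from log2 CPM, Pearson's r was positive for 44 of the 45 pairs of members (median 0.41), and 18 pairs had a permutation p, adjusted over the 45 pairs, under 0.05. Permutations (100000) were made within groups. Without cow 912, r was positive for 41 pairs (median 0.345) and 10 pairs stayed under 0.05. Among the 5 cycle enzymes all 10 pairs were positive with and without this cow, 7 and 3 of them under 0.05. The share of such pairs among other genes was not examined, so these counts do not set the members apart from other liver genes. *CPS1* had a higher r with *CAT*, which is not a member (0.89), than with any member (at most 0.815).

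*CPS1* and *ASS1* had the highest r of all pairs, 0.81 (rho 0.73, both permutation p = 1e-05, the smallest 100000 permutations give, adjusted p = 0.00045). It was 0.74 without cow 912, 0.70 without the 2 cows farthest from the median of *CPS1*, and 0.70 to 0.92 within the 4 groups. *ASS1* with *ASL* gave r = 0.80 (rho 0.71, adjusted permutation p = 0.00045), which was 0.73 without cow 912. *GLS2* followed *ASS1* (r = 0.80, rho 0.74) and *CPS1* (r = 0.74, rho 0.72), with 0.71 and 0.61 without cow 912. *OTC* depended on this cow for its place among them, since 5 of its 9 pairs were under an adjusted p of 0.05 with it and 0 without it. The pair of *CPS1* and *OTC* went from 0.65 to 0.45.

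*NAGS* and *GLUL* had 0 of 9 pairs each under an adjusted permutation p of 0.05, with and without cow 912. The r of *NAGS* with *CPS1*, the enzyme its product activates, was 0.21 (rho 0.04, adjusted permutation p = 0.463) and between -0.35 and 0.54 within groups. The r of *GLUL* with *CPS1* was 0.41 (rho 0.44, adjusted permutation p = 0.0619), and with *OTC* it was -0.01 (rho 0.02). *GLUD1* was under 0.05 with *ARG1* only (r = 0.46, rho 0.44), and that pair was at an adjusted p of 0.0751 without cow 912.

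**Figure D3:**
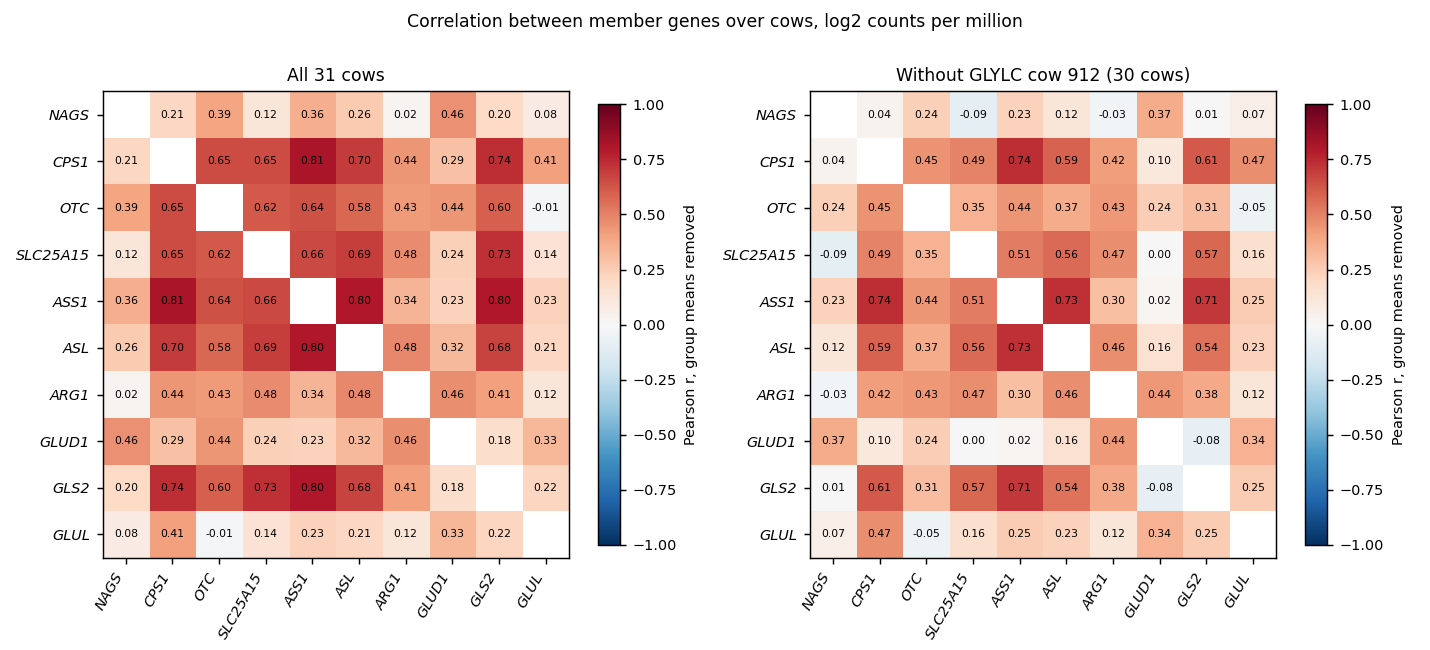
Pearson's r between each pair of the 10 genes over cows, from log2 CPM with group means removed, for all 31 cows on the left and for 30 cows without cow 912 on the right (colour scale from -1 to 1). *CPS1*, *ASS1*, *ASL* and *GLS2* have r of 0.54 or more with each other in both panels. The lines of *NAGS* and *GLUL* are mostly pale, and so is that of *GLUD1* in the panel without cow 912.

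Over 11135 genes with a mean of at least 1 CPM, the gene whose group-centred pattern over 31 cows was most like that of *CPS1* was *CAT*, catalase (r = 0.89, and 0.86 without cow 912). It was followed by *GOLIM4*, a Golgi membrane protein (r = 0.87), and *MAOB*, monoamine oxidase B (r = 0.87). For *GLUL* it was *RGSL1* (r = 0.85 with and without cow 912), ahead of *ZNF705A* (r = 0.66) and *CLINT1* (r = 0.63). In the RefSeq annotation of assembly ARS-UCD2.0, which is not the assembly the reads were counted on, *RGSL1* lies next to *GLUL* with 1 protein-coding gene, *TEDDM1*, between them. The CONLC cow 259 had the highest level of both genes, 554 CPM of *GLUL* and 45.9 of *RGSL1*, and CONHC cow 134 came next with 333 and 39.5. Whether reads of one gene were assigned to the other was not tested.

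**Figure D4:**
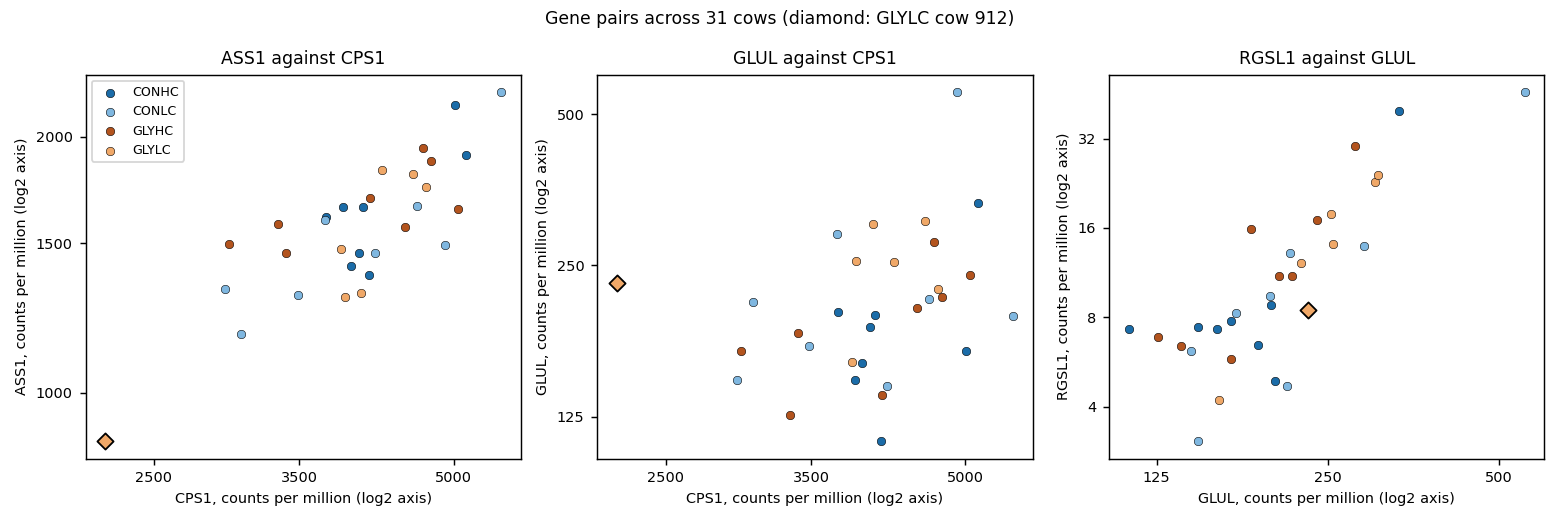
Levels in CPM on log2 axes, 1 point per cow coloured by group, for *ASS1* against *CPS1*, *GLUL* against *CPS1* and *RGSL1* against *GLUL*. *ASS1* rose with *CPS1* in every group, GLYLC cow 912 (diamond) was lowest for *CPS1* and *ASS1* but not for *GLUL*, and the 2 cows highest in *GLUL* were also highest in *RGSL1*.

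Genes around the cycle were examined in 4 lists. Among transporters and partners of the cycle (carriers of glutamate, aspartate, glutamine and cationic amino acids, urea and ammonia channels, mitochondrial carbonic anhydrase and sirtuins), 27 of 31 genes were tested. HC against LC called 1, *SLC1A1*, with lower values in HC, and 2 in all were at an unadjusted p under 0.05, where 1.45% and 13.7% of all genes were, with a list median of -0.06. *SLC1A1*, a glutamate and aspartate transporter, had medians of 27.3 CPM in CONHC, 36.1 in CONLC, 22.4 in GLYHC and 36.2 in GLYLC, and it fell by 0.55 on the log2 scale in HC (SE 0.15, edgeR adjusted p = 0.0793). Its groups overlapped, and the call was kept in 21 of the 31 fits that left out 1 cow, with an adjusted p of up to 0.132 (without GLYHC cow 32).

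Among 21 tested of 22 enzymes of arginine, proline, creatine and polyamine metabolism, 1 gene was called in HC against LC (background 1.45%) and the list median was -0.04. This was *PYCR1*, the mitochondrial reductase that makes proline. *PYCR1* was at most 2.60 CPM in CONHC and between 2.38 and 14.6 in CONLC, and between 1.06 and 5.64 in GLYHC and 1.90 and 10.7 in GLYLC. The CON groups thus overlapped only at their edges and the GLY groups more widely. *PYCR1* fell by 1.54 on the log2 scale in HC (SE 0.31, edgeR adjusted p = 0.0275), and it was called in all 31 fits that left out 1 cow, with an adjusted p of 0.0481 at most. DESeq2 also called it. The difference was -2.15 in CON cows and -0.92 in GLY cows (-0.58 without cow 912), neither of them called by edgeR over all cows. The CON difference was called by DESeq2 (adjusted p = 0.000415) and by edgeR without cow 912 (adjusted p = 0.055).

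Among 28 tested of 30 enzymes that release ammonia or pass on amino groups, 0 were called in HC against LC by edgeR, with 4 at an unadjusted p under 0.05 (2 higher and 2 lower, where 13.7% of all genes were) and a list median of -0.03. In GLYLC against CONLC 1 was called, *GPT2*, the mitochondrial alanine aminotransferase, where 0.0628% of all genes were. *GPT2* had medians of 10.5 CPM in CONHC, 16.8 in CONLC, 14.0 in GLYHC and 9.37 in GLYLC, and 12.9 CPM was its lowest and 26.4 its highest value in CONLC against 5.69 and 13.6 in GLYLC. It fell by 0.88 on the log2 scale (SE 0.19, edgeR adjusted p = 0.0871), a call kept in only 5 of 31 fits with 1 cow left out, and lost without cow 912 (-0.81, adjusted p = 1). The HC against LC difference of *GPT2* was -0.79 in CON and 0.54 in GLY cows, and their difference, the interaction, was 1.33 (SE 0.26) with an edgeR adjusted p of 0.251 and a DESeq2 adjusted p of 0.00824. The interaction therefore passed the threshold in 1 tool only.

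Among 19 tested of 21 regulators of urea cycle genes, edgeR called 0 in any of the 7 contrasts. In HC against LC 1 was at an unadjusted p under 0.05, *NR1H4*, the bile acid receptor, with a log2 difference of -0.21 (edgeR adjusted p = 0.332). Without cow 912 it was -0.13, and 0 regulators were at an unadjusted p under 0.05. *GCGR*, the glucagon receptor, differed by -0.08 in that comparison (-0.12 without cow 912) and by -0.22 between CONHC and CONLC, and neither passed the threshold.

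**Figure D5:**
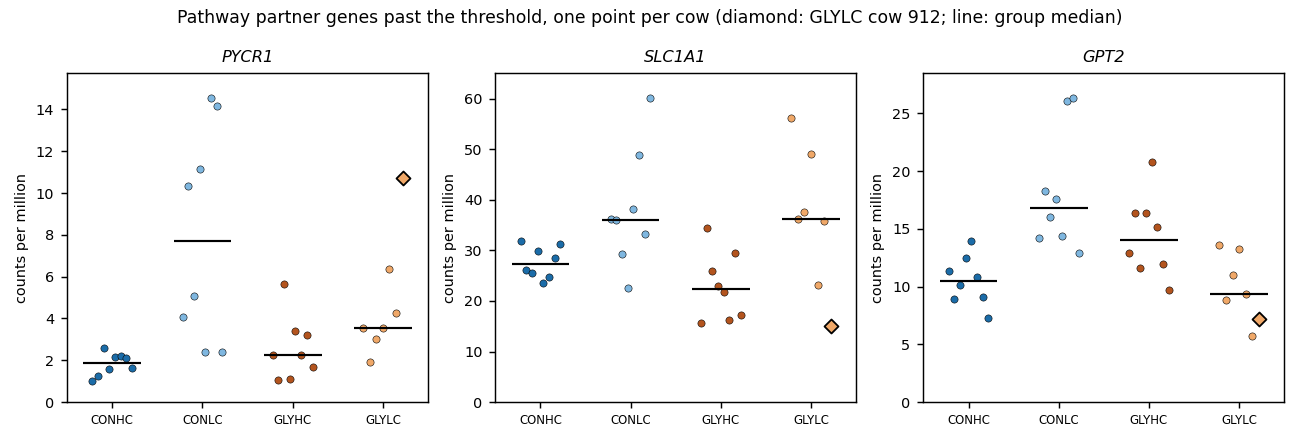
Level in CPM (y axes from 0, scaled per gene) of the 3 pathway partners past the threshold, *PYCR1*, *SLC1A1* and *GPT2*, for each cow of the 4 groups, with a line at the group median and a diamond for cow 912. *PYCR1* medians were 1.88 in CONHC and 7.72 in CONLC, and the *GPT2* median was higher in CONLC than in CONHC (16.8 against 10.5) and lower in GLYLC than in GLYHC (9.37 against 14.0).

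The zones of the liver lobule were examined through other genes, since the cycle is periportal and *GLUL* pericentral. Of 9 periportal markers, 9 were higher in HC than LC with a median of 0.11 and 1 was at an unadjusted p under 0.05, *ETNPPL* (log2 difference 0.29). Without cow 912, 8 of 9 were higher with a median of 0.06 and 0 were at an unadjusted p under 0.05. In GLY cows *ETNPPL* differed by 0.48 and *HSD17B13* by 0.67, and neither passed the threshold. Of 15 pericentral markers 7 were higher and 8 lower with a median of -0.03, and 2 were below 0.05, *CYP1A2* (-0.31, edgeR adjusted p = 0.168) and *LHPP* (0.24). Without cow 912, 4 pericentral markers were higher and 11 lower with a median of -0.07. Of these, 1 higher and 2 lower were at an unadjusted p under 0.05. edgeR called 0 genes of either list in any of the 7 contrasts, but without cow 912 it called *CYP1A2* in HC against LC (-0.35, edgeR adjusted p = 0.0893).

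Some markers of macrophages and of stellate cells were called in HC against LC. Of 10 macrophage and Kupffer cell markers, 7 were higher in HC at an unadjusted p under 0.05 (background for higher values 5.88%) and 3 were called, *CD68*, *ADGRE1* and *CD5L*, with a list median of 0.36. Their sum was 586 to 1718 CPM in HC and 705 to 1351 CPM in LC cows. Of 10 stellate cell and fibroblast markers, 10 had lower fitted values in HC, 8 of them at an unadjusted p under 0.05 (background for lower values 7.81%), and 1 was called, *DCN*, with a list median of -0.83. Their sum was 137 to 317 CPM in HC and 168 to 2280 CPM in LC cows, and the highest was CONLC cow 103. Without cow 912, 6 macrophage and 6 stellate cell markers stayed at an unadjusted p under 0.05 in these directions, with list medians of 0.32 and -0.63. Without that cow the log2 differences of *ADGRE1*, *CD5L* and *CD68* were 0.60, 0.37 and 0.55, against 0.66, 0.41 and 0.61 with it, and none of the 3 was called. Their calls were kept in 20, 12 and 9 of the 31 fits with 1 cow left out, and that of *DCN* in all 31. In HC against LC edgeR called 0 of the hepatocyte (12 tested), bile duct (6), lymphocyte (12) and endothelial (8) markers. At an unadjusted p under 0.05 there were 2, 0, 0 and 0, where 13.7% of all genes were. Without cow 912 edgeR called 0 in these lists too, with 4 hepatocyte markers higher and 1 lower at that p (background 11.9%). The 2 genes of smallest p in each of these lists follow, each in the contrast of its own smallest p. Between GLYLC and CONLC, *HP* (4.24) and *FGB* (0.54), acute phase proteins made by hepatocytes, *JCHAIN* (1.35), of antibody-secreting cells, and *GZMA* (-0.81), of cytotoxic lymphocytes, were compared on the log2 scale. Without cow 912 these were 1.47, 0.40, 0.30 and -0.80. In that contrast 8 of 12 hepatocyte markers (list median -0.05) and 9 of 12 lymphocyte markers (-0.29) were lower in GLYLC. Without cow 912, 2 hepatocyte markers (list median 0.06) and 9 lymphocyte markers (-0.23) were lower. The bile duct genes *KRT19* (-0.90) and *SPP1* (0.83) were compared between GLYHC and GLYLC, and the endothelial *VWF* (-0.43) between CONHC and CONLC and *LYVE1* (-0.22) between GLYHC and CONHC, and none passed the threshold. Of 8 intestinal markers 4 were called in HC against LC (background 1.45%) and in GLYHC against GLYLC (0.201%), *FABP2*, *MUC13*, *BCO1* and *OLFM4*. All of them but *MUC13* were also called in GLYLC against CONLC (0.0628%). For these 4 genes cow 912 had 11.5 CPM or more and every other cow 0.163 CPM or less. Without cow 912, 4 intestinal markers were tested and 0 were called. Marker scores were means over the genes of a list of log2 CPM less each gene's median. The hepatocyte score includes *HP*, which ranged from 9.75 to 19491 CPM over cows, so this score does not measure hepatocyte content alone. Over the 31 cows, none of the 40 relations of the 10 members with library size or with the hepatocyte, stellate or macrophage scores was under a permutation p of 0.05 after adjustment (lowest adjusted p 0.61). Without cow 912 the lowest adjusted p was 0.0928, for *CPS1* with the macrophage score, whose r was -0.33 with and -0.54 without this cow. Their part in the level of the cycle genes was not tested further.

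In the same RefSeq annotation, 6 of the 10 genes overlap another gene, namely *ASL* with *CRCP*, *NAGS* with *TMEM101*, *GLS2* with *SPRYD4*, *GLUD1* with *SHLD2* and a long non-coding RNA, *ARG1* with a long non-coding RNA, and *SLC25A15* with an unnamed protein-coding gene. Because whether the counting used strand is not given in the sources used here, reads of these genes and of their partners may not be fully separated, and their values are uncertain to that extent.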

How the data were processed

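Liver RNA of 31 cows was sequenced from stranded mRNA libraries (1 library per cow). The authors trimmed reads with Trim Galore (Phred score 20, minimum length 30 nt), checked them with FastQC, aligned them to UMD3.1 (Ensembl annotation) with HISAT2 2.1.0 and used HTSeq 0.8.0 to count the reads of each gene that mapped to 1 place. The deposited values used here are these raw read counts. The authors' DESeq2 1.20.0 normalized table was not used. Whether the counting used strand is not given in the sources used here. No coordinates or sequences are printed.

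Groups were taken from the sample titles. Genes that reached 20 reads over the 31 cows were tested with edgeR 4.0.16 (R 4.3.3) by the quasi-likelihood F test after TMM scaling, as group means for pairwise contrasts and the interaction, and with additive terms for HC against LC and GLY against CON. A gene was called at p under 0.05 and Benjamini-Hochberg adjusted p under 0.1 over all genes tested. Correlations used log2 CPM with a prior count of 2. The test was checked on simulated counts. Between 443 and 159417 reads stood behind each value of a member, so that counting error was small beside the spread between cows.

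The members and gene lists were chosen with earlier results of these data known. Named were the 10 members, every called gene of each list (the 2 with the smallest p where a list had none), the 3 genes nearest in pattern to *CPS1* and *GLUL*, and *FABP2*. The red cell list and some nearest patterns are not reported here. *ALB* and further nearest patterns were named after their values were seen. Alternatives were other scalings and filters, a robust fit, DESeq2 1.42.0, fits on the 2 groups compared, and each cow left out. The fit without scaling factors and the refits of list genes, in all settings or without cow 912, were added after the data were seen.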

Additional observations from a re-analysis of the deposited data

Results flagged for a closer look

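Within the 4 groups, 40 sets of values were examined for a highest or lowest cow that stood far from its group by Dixon's ratio, and 6 were found, where chance gives about 1 in 20. These were *CPS1* in GLYLC cow 912 (2234 CPM, lowest), *ASS1* in CONLC cow 169 (2257 CPM, highest), *SLC25A15* in CONLC cow 169 (108 CPM, highest), *GLUL* in CONHC cow 134 (333 CPM, highest), *GLUL* in CONLC cow 259 (554 CPM, highest) and *GLS2* in CONHC cow 7 (246 CPM, highest). Cow 169 also had the highest *CPS1* (5582 CPM) and *ASL* (682 CPM) of all cows.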

How the results depend on the processing

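The count of called members was 0 in every contrast to which an alternative was applied. The alternatives for all 7 contrasts were RLE and upper-quartile scaling, no scaling factors, no filter on low counts, filterByExpr (minimum of 10), a robust fit, an adjusted p under 0.05, DESeq2 on all cows, and each of the 31 cows left out in turn, and those for the 4 pairwise contrasts were edgeR and DESeq2 on the 2 groups compared. Of the members' log2 fold changes, 566 kept their direction and their side of the threshold under the alternatives other than leaving out a cow. The 4 that did not were *OTC* in GLYHC against CONHC (0.00654), *CPS1* (0.068) and *OTC* (0.0648) in the interaction without scaling factors, and *ASS1* in GLYHC against CONHC with filterByExpr (-0.000149). With 1 cow left out, 105 changed sign and 2065 did not, and the changes fell on 28 differences of at most 0.13 in size. Their lowest and highest values were as follows. In GLYHC against GLYLC, *ARG1* -0.0651 to 0.20, *ASL* -0.19 to 0.0366, *CPS1* -0.043 to 0.11, *GLUD1* -0.0134 to 0.17. In the interaction, *ARG1* -0.23 to 0.0392, *ASS1* -0.0459 to 0.13, *CPS1* -0.11 to 0.0523, *GLUL* -0.29 to 0.18, *OTC* -0.13 to 0.0732. In GLY against CON, *ASL* -0.0948 to 0.0151, *ASS1* -0.051 to 0.0227, *CPS1* -0.0727 to 0.0017, *GLUL* -0.000977 to 0.18, *OTC* -0.0671 to 0.0263. In GLYHC against CONHC, *ASL* -0.0251 to 0.0955, *ASS1* -0.0334 to 0.0745, *CPS1* -0.0989 to 0.00573, *GLUL* -0.0414 to 0.21, *OTC* -0.0689 to 0.0206, *SLC25A15* -0.14 to 0.0165. In GLYLC against CONLC, *ASS1* -0.11 to 0.0471, *CPS1* -0.0964 to 0.0589, *GLUD1* -0.0758 to 0.0953, *GLUL* -0.044 to 0.33, *NAGS* -0.10 to 0.0785, *OTC* -0.11 to 0.0988. In CONHC against CONLC, *GLS2* -0.0919 to 0.20, *SLC25A15* -0.15 to 0.0814. Counts over all genes moved more. DESeq2 called 434 genes in HC against LC (edgeR 231), 143 in GLYHC against GLYLC (32), 27 in CONHC against CONLC (0), 4 in GLYLC against CONLC (10) and 1 each in GLY against CON and the interaction (0). Without cow 912 edgeR called 136 in HC against LC, 0 in GLYHC against GLYLC, 7 in CONHC against CONLC and 0 in GLYLC against CONLC. Pairs of members with an adjusted permutation p under 0.05 went from 18 to 10 without cow 912, and r changed sign for *ARG1* with *NAGS* (-0.03015), *NAGS* with *SLC25A15* (-0.0942) and *GLUD1* with *GLS2* (-0.0825). The cause was not tested. No paired analysis was possible because the animal numbers are not shared between groups. No refit at other depths was run. The 95% intervals of members between HC and LC lay within -0.83 to 0.60 on the log2 scale in CON cows and -0.83 to 1.11 in GLY cows.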

Other observations

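Of the 8 other members, 6 are given here with their near neighbours in pattern over the 31 cows (group-centred log2 CPM), which were chosen after their values were seen and serve as descriptions. *OTC* was nearest to *KNG1*, kininogen (r = 0.91, 0.81 without cow 912), and *NAGS* to *SLC25A22*, a mitochondrial glutamate carrier (r = 0.88, 0.91 without cow 912). *ASS1* was nearest to *HSD11B1*, which regenerates active glucocorticoid (r = 0.86, 0.79 without cow 912), and *ASL* to *DHRS12* (r = 0.85, 0.79 without cow 912). *GLUD1* was nearest to *ENO1*, an enolase of glycolysis (r = 0.76, 0.75 without cow 912), with *CA5A*, the mitochondrial carbonic anhydrase that supplies bicarbonate to *CPS1*, after it (r = 0.74, 0.69 without cow 912). *ARG1* was nearest to *MAB21L3* (r = 0.76, 0.75 without cow 912).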
